A study of Mus musculus with 8 samples.

Results

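The endoplasmic reticulum (ER) folding, translocation and stress genes are 35 listed mouse genes whose products move new proteins into the ER, fold them there, clear those that fail to fold, and report on ER load. They were taken by symbol from read counts of 8 mouse CD4+ T cell libraries, and all 35 were found among 54446 gene entries in each colon file and 55341 in each culture file. The knockout (KO) cells carried Cd4_cre and floxed Rora alleles on both copies, and the control (WT) cells carried the floxed alleles alone, so only KO cells had a Cre recombinase, driven in T-lineage cells by Cd4 sequences. Rora encodes the nuclear receptor RORα. For the colon libraries, 2 per genotype, naive CD4+ T cells of either genotype had been given to Tcrbd-/- mice, which have no T cells of their own but keep B cells and innate cells, and the colon CD4+ T cells were collected 6 weeks later. For the culture libraries, 1 per genotype and cytokine mix, naive cells were grown for 4 days towards Th17 on plates coated with antibodies to CD3 and CD28, in IL-6+IL-1β+IL-23 (the IL-23 mix) or in TGF-β+IL-6 (the TGF-β mix). All cells, KO and WT, received PMA and ionomycin for 2 h before RNA was taken from whole samples. The labels do not say whether mice were pooled or whether replicate libraries came from separate mice, so the p-values cover variation among libraries that may be only technical. The culture libraries had no replicates. In their fit the mixes stood in as repeats of the genotype difference, and the genotypes as repeats of the mix difference. The p-values of that fit therefore measure no spread between replicates.

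As background, proteins meant for secretion or for membranes enter the ER through the Sec61 channel, lose their signal peptide, and are folded by chaperones and disulfide isomerases. When unfolded proteins build up, sensors in the ER membrane, IRE1α (Ern1), PERK (Eif2ak3) and ATF6 (Atf6), start the unfolded protein response, in which IRE1α splices the mRNA of the transcription factor XBP1, which then raises transcription of many of the genes described here. Activated T helper cells make large amounts of secreted cytokine and expand their ER. Counts per gene do not separate spliced from unspliced Xbp1 mRNA.

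The promoters of 10 members are shown because they hold, before the transcription start, a word that ATF6 and XBP1 are known to recognise in ER stress promoters. Capitals mark the ER stress element (ERSE, CCAAT then 9 bases then CCACG), its shorter relative ERSE-II (ATTGG, 1 base, CCACG) or the core of the unfolded protein response element (UPRE, TGACGTG), each searched on both strands from 250 bases before to 50 after the start in RefSeq promoters of GRCm38.p6. A match on the opposite strand reads CGTGG, 9 bases, ATTGG. The stretches run 5′ to 3′ on the strand of the gene, with 20 bases on either side.
Hspa5: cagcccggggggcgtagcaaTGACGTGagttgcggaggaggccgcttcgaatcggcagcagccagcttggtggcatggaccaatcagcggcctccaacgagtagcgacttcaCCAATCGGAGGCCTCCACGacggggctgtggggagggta
Hsp90b1: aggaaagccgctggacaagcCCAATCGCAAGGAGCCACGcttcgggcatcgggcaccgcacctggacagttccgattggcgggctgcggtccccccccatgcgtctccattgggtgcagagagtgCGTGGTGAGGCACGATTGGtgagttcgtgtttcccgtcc
Dnajc3: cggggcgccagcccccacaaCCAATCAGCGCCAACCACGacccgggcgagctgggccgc
Calr: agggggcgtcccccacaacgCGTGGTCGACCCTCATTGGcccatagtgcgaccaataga
Canx: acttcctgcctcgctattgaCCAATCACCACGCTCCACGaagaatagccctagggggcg
Pdia6: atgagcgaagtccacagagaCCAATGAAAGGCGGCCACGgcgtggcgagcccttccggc
Creld2: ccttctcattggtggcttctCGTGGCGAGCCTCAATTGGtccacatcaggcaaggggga
Herpud1: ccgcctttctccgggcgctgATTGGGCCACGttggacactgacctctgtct
Derl3: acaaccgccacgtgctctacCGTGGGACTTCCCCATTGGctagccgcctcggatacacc
Syvn1: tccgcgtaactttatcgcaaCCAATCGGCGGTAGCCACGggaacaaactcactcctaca

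The Hspa5 stretch lies at chr2:34771913-34772063 on the plus strand and holds a UPRE core and an ERSE. The Hsp90b1 stretch at chr10:86705513-86705676 on the minus strand holds 2 ERSE matches facing each other. ERSE matches also stand in the stretches of Dnajc3 at chr14:118937807-118937865 on the plus strand, Calr at chr8:84847055-84847113 on the minus strand, and Canx at chr11:50325780-50325838 on the minus strand. Those of Pdia6 lie at chr12:17266471-17266529 on the plus strand, of Creld2 at chr15:88819500-88819558 on the plus strand, of Derl3 at chr10:75893222-75893280 on the plus strand, and of Syvn1 at chr19:6046512-6046570 on the plus strand. Herpud1 has an ERSE-II at chr8:94386357-94386407 on the plus strand, and Dnajb11 has one just after its start. Of the 35 members, 28 had a promoter in the table, and 9 of these (32.1%) held an ERSE, against 39 of 32851 promoter entries in all (0.119%). ERSE-II stood in 2 of the 28 (7.14%), against 0.0365% of all entries, and the UPRE core in 1 (3.57%), against 2.01%. Any of the 3 words was found in 11 of 28 (39.3%) and in 2.16% of all entries. A match is a description of letters and not of binding. The ERSE is known from ER stress promoters, and the members were listed as ER folding, translocation and stress genes. Its higher share among the members is therefore no independent result. Hyou1, Manf, Derl1, Atf6, Sec61a1, Ssr2 and Spcs3 had no promoter entry.

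The libraries held 13176752 to 15922696 counts each, and values below are CPM (read counts scaled to a fixed library size) with edgeR's TMM factors computed within the colon or within the culture libraries. Rora RNA stood at 133 and 149 CPM in the KO colon libraries, against 252 and 290.3 CPM in the WT colon libraries, which is 52.0% of the WT mean, and its log2 fold change was -0.94 ± 0.093 (SE, edgeR adjusted p = 2.4e-05). Reads of the gene remained in KO cells, and gene counts do not show which exons they cover. In culture Rora stood at 59.0 CPM in KO and 152 CPM in WT cells with the IL-23 mix, and at 189 CPM in KO and 499 CPM in WT cells with the TGF-β mix. The colon samples were not only T cells. B and plasma cell markers summed to 2468 and 2665 CPM in KO colon, against 876 and 877 CPM in WT colon, with 9 of 13 tested markers higher in KO and Ms4a1 at 0 in WT. Igha alone stood at 1414 and 1505 CPM in KO colon, against 385 and 379 CPM in WT colon. Epithelial markers summed to 125 and 125 CPM in KO and 49.8 and 46.3 CPM in WT colon (7 of 8 higher, Krt20 at 0 in WT), and fibroblast markers to 151 and 137 CPM in KO and 47.5 and 40.7 CPM in WT colon (7 of 8 higher). Macrophage markers reached 65.2 and 64.4 CPM in KO and 41.7 and 40.7 CPM in WT colon (5 of 7 higher), and dendritic cell markers 494 and 519 CPM in KO and 348 and 341 CPM in WT colon (4 higher and 2 lower of 6). Cd74, H2-Ab1 and H2-Aa carried the dendritic sum, Cd74 with 268 and 296 CPM in KO and 193 and 188 CPM in WT colon. Itgax was also higher in KO. Xcr1 was lower, at 29.1 and 33.3 CPM in KO and 39.9 and 36.7 CPM in WT colon. So was Zbtb46, at 9.26 and 8.78 CPM in KO and 12.3 and 13.4 CPM in WT colon. Mast cell markers summed to 121 and 107 CPM in KO and 199 and 199 CPM in WT colon. Kit carried that sum, with 115 and 101 CPM in KO and 199 and 199 CPM in WT colon, while Mcpt1 stood at 4.02 and 4.00 CPM in KO and 0.0812 and 0.0714 CPM in WT colon, Cpa3 at 0.272 and 0.388 CPM in KO and 0.162 and 0.143 CPM in WT colon, and Mcpt2, Tpsb2 and Fcer1a were at 0 in WT. T cell markers summed to 11563 and 11342 CPM in KO and 14822 and 14268 CPM in WT colon (12 lower and 1 higher of 16, median log2 fold change -0.32), and Th17 markers to 933 and 1002 CPM in KO and 2934 and 3155 CPM in WT colon (5 of 6 lower).

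In colon CD4+ T cells, most of the ER genes had less RNA in KO than in WT. Of the 35 members, all of which were tested, 23 fell, 1 (Hsp90b1) rose and 11 did not pass, with a median log2 fold change of -0.33. Over all 13101 genes tested, 19.9% were lower and 19.6% higher in KO, and the median was 0.013. Log2 fold changes below are KO over WT from edgeR's quasi-likelihood test of 2 against 2 libraries, with a threshold of 0.05 on the p adjusted over all genes tested. The members that fell came from every role: 5 of 8 chaperones, 4 of 6 lectin chaperones and isomerases, 5 of 7 degradation genes, 3 of 4 in the sensor group, 5 of 7 translocon genes and 1 of 3 signal peptidase subunits. In these bulk samples, fewer cells of a type and less RNA per cell cannot be told apart. The summed markers of B and plasma, epithelial, fibroblast, macrophage and dendritic cells were higher in KO colon, as given above. The dendritic sum was higher through Cd74, H2-Ab1, H2-Aa and Itgax, with Xcr1 and Zbtb46 below their WT levels in both KO libraries. The mast cell sum was lower through Kit, with Mcpt1, Mcpt2, Tpsb2 and Cpa3 above their WT levels in both KO libraries. The part of these markers in the colon differences of the ER genes was not tested.

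**Figure D1:**
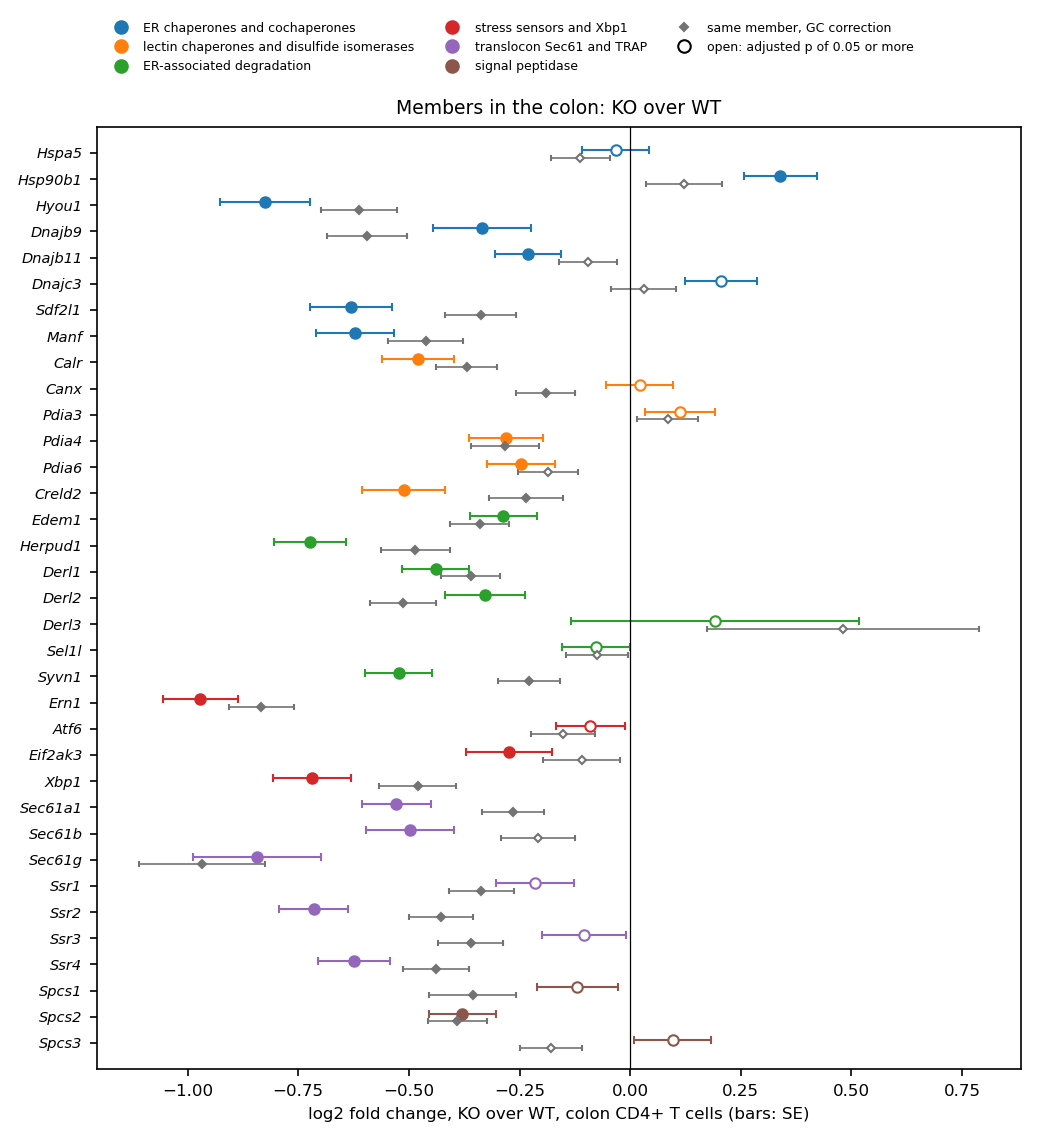
Log2 fold change of the 35 members in colon CD4+ T cells, KO over WT (x axis, with bars of 1 SE), by role down the page. Filled points passed an adjusted p of 0.05, open points did not, and grey diamonds are the values after a correction for GC content. Ern1 at -0.97, Sec61g at -0.84 and Hyou1 at -0.83 lie farthest to the left, and Hsp90b1 at 0.34 is the only filled point to the right of 0, which its diamond (0.12) no longer passes.

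Among the chaperones 5 of 8 fell, and BiP (Hspa5), the Hsp70 protein of the ER lumen, did not pass. Hspa5 stood at 2319.6 and 2341 CPM in the KO colon libraries, against 2445 and 2321 CPM in the WT colon libraries. The genotypes overlapped, and the log2 fold change was -0.032 ± 0.076 (SE, edgeR adjusted p = 0.77). Hyou1, a large Hsp70 relative that exchanges nucleotide on BiP, stood at 407 and 339.7 CPM in KO colon, against 707 and 616 CPM in WT colon (chr9:44379490-44392369, plus strand, mm10). Both KO libraries were below both WT libraries, and Hyou1 fell by 0.83 ± 0.10 on the log2 scale (edgeR adjusted p = 0.0001). Manf, a small secreted ER protein that binds BiP, stood at 235 and 264 CPM in KO colon, against 366 and 401 CPM in WT colon, and its log2 fold change was -0.62 ± 0.087 (SE, edgeR adjusted p = 0.00025). Sdf2l1, which works with the cochaperone Dnajb11 to keep substrates soluble, stood at 46.2 and 41.8 CPM in KO colon, against 66.2 and 69.9 CPM in WT colon, with a log2 fold change of -0.63 ± 0.092 (SE, edgeR adjusted p = 0.00033). For Manf and Sdf2l1 too the genotypes did not overlap. Of the J-domain cochaperones of BiP, Dnajb9 had a log2 fold change of -0.33 ± 0.11 (SE, edgeR adjusted p = 0.032) and Dnajb11 of -0.23 ± 0.075 (SE, edgeR adjusted p = 0.03). Dnajc3 gave 0.20 ± 0.081 (SE, edgeR adjusted p = 0.064). Hsp90b1 (Grp94), the ER member of the Hsp90 family, stood at 432 and 418 CPM in KO colon, against 355 and 316 CPM in WT colon, with no overlap, and a log2 fold change of 0.34 ± 0.083 (SE, edgeR adjusted p = 0.0072). Hspa5 and Hsp90b1 were given library by library after their values were seen. In the annotation, 15.7% of Hsp90b1 exon bases are shared with 3 other genes, so its counts are less certain.

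The lectin chaperone calreticulin fell, and its membrane-bound relative calnexin did not pass. Calr stood at 1646 and 1523 CPM in the KO colon libraries, against 2298 and 2118 CPM in the WT colon libraries. The lowest WT library lay well above the highest KO library, and the log2 fold change was -0.48 ± 0.082 (SE, edgeR adjusted p = 0.00086). Canx stood between 348 and 363 CPM in all 4 libraries, with a log2 fold change of 0.021 ± 0.075 (SE, edgeR adjusted p = 0.85). Creld2, a disulfide isomerase-like protein induced by ER stress, stood at 122 and 112 CPM in KO colon, against 180.4 and 153 CPM in WT colon, with a log2 fold change of -0.51 ± 0.094 (SE, edgeR adjusted p = 0.0014). Pdia4, a protein disulfide isomerase, stood at 85.8 and 80.0 CPM in KO colon, against 103 and 98.3 CPM in WT colon, with a log2 fold change of -0.28 ± 0.084 (SE, edgeR adjusted p = 0.02). In both, KO was below WT without overlap, and the Pdia4 difference was the smaller. Pdia6 had a log2 fold change of -0.25 ± 0.077 (SE, edgeR adjusted p = 0.024), and Pdia3, which works with calreticulin and calnexin, had 0.11 ± 0.080 (SE, edgeR adjusted p = 0.29).

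ER-associated degradation pulls misfolded proteins back to the cytosol for the proteasome, and 5 of its 7 members fell. Herpud1, which helps to assemble the degradation complex in the ER membrane, stood at 116 and 123 CPM in the KO colon libraries, against 191 and 204 CPM in the WT colon libraries. The KO values were well below the WT values in both libraries, and the log2 fold change was -0.72 ± 0.081 (SE, edgeR adjusted p = 5.7e-05). Syvn1 (Hrd1), the ubiquitin ligase at the centre of that complex, stood at 139 and 141 CPM in KO colon, against 199 and 203 CPM in WT colon, with a log2 fold change of -0.52 ± 0.076 (SE, edgeR adjusted p = 0.00031). Derl1, a membrane protein of the exit channel, stood at 206 and 212 CPM in KO colon, against 281 and 285 CPM in WT colon, with a log2 fold change of -0.44 ± 0.075 (SE, edgeR adjusted p = 0.00087). All 3 separated the genotypes by far more than the spread within them. Derl2 had a log2 fold change of -0.33 ± 0.090 (SE, edgeR adjusted p = 0.014) and Edem1, which recognises trimmed sugars on misfolded proteins, -0.29 ± 0.076 (SE, edgeR adjusted p = 0.011). Sel1l, the partner of Syvn1, had -0.078 ± 0.077 (SE, edgeR adjusted p = 0.46). Derl3, which is also a plasma cell marker, was close to absent, with 79 and 37 counts in KO colon and 42 and 47 counts in WT colon, and a log2 fold change of 0.19 ± 0.33 (SE, edgeR adjusted p = 0.67).

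The member with the lowest colon fold change of the 35 was a stress sensor. Ern1 (chr11:106394650-106487852, minus strand, mm10) stood at 227 and 205 CPM in the KO colon libraries, against 439.6 and 405 CPM in the WT colon libraries. The KO mean was 51.0% of the WT mean, and the log2 fold change was -0.97 ± 0.085 (SE, edgeR adjusted p = 1e-05). Xbp1, whose mRNA is the target of IRE1α, stood at 432 and 469 CPM in KO colon, against 691 and 792 CPM in WT colon, 60.8% of the WT mean, with a log2 fold change of -0.72 ± 0.089 (SE, edgeR adjusted p = 0.00011). Both KO libraries lay below both WT libraries for Ern1 and for Xbp1. Of the other sensors, Eif2ak3 stood at 38.7 and 34.8 CPM in KO colon, against 43.5 and 45.2 CPM in WT colon, with a log2 fold change of -0.27 ± 0.097 (SE, edgeR adjusted p = 0.042), and Atf6 had -0.090 ± 0.078 (SE, edgeR adjusted p = 0.39).

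Of the 7 translocon genes 5 fell, and subunits of 1 complex did not all pass. Ssr2, a subunit of the translocon-associated protein (TRAP) complex, stood at 190.4 and 191 CPM in the KO colon libraries, against 324 and 301 CPM in the WT colon libraries. The 2 KO libraries were nearly equal and both below WT, and the log2 fold change was -0.72 ± 0.078 (SE, edgeR adjusted p = 4.8e-05). Ssr4, another TRAP subunit, stood at 118 and 125 CPM in KO colon, against 194 and 180.3 CPM in WT colon, with a log2 fold change of -0.62 ± 0.081 (SE, edgeR adjusted p = 0.00015). The other TRAP subunits did not pass, Ssr1 with -0.22 ± 0.088 (SE, edgeR adjusted p = 0.071) and Ssr3 with -0.10 ± 0.095 (SE, edgeR adjusted p = 0.41). Sec61a1, the pore of the channel, stood at 491 and 488 CPM in KO colon, against 679 and 733 CPM in WT colon, with a log2 fold change of -0.53 ± 0.078 (SE, edgeR adjusted p = 0.00034). Its small partner Sec61g stood at 31.3 and 36.4 CPM in KO colon, against 71.1 and 50.7 CPM in WT colon, a wide spread in WT, and had -0.84 ± 0.14 (SE, edgeR adjusted p = 0.00086). Sec61b had -0.50 ± 0.10 (SE, edgeR adjusted p = 0.0023), but 0.026 and no call when corrected for GC content and length. In the signal peptidase, which cuts off the signal peptide, Spcs2 stood at 179.9 and 186 CPM in KO colon, against 236 and 240.4 CPM in WT colon, with no overlap and a log2 fold change of -0.38 ± 0.076 (SE, edgeR adjusted p = 0.0023). Spcs1 stood at 92.1 and 87.4 CPM in KO colon, against 104 and 90.8 CPM in WT colon, the genotypes overlapping, with -0.12 ± 0.091 (SE, edgeR adjusted p = 0.32). Spcs3 stood at 162 and 186 CPM in KO colon, against 161 and 165 CPM in WT colon, also overlapping, with 0.096 ± 0.087 (SE, edgeR adjusted p = 0.41). Of the exon bases of Ssr2, 12.8% are shared with other genes in the annotation, and of Spcs1 16.3%, and the counting's strand setting is not stated in the sources used.

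**Figure D2:**
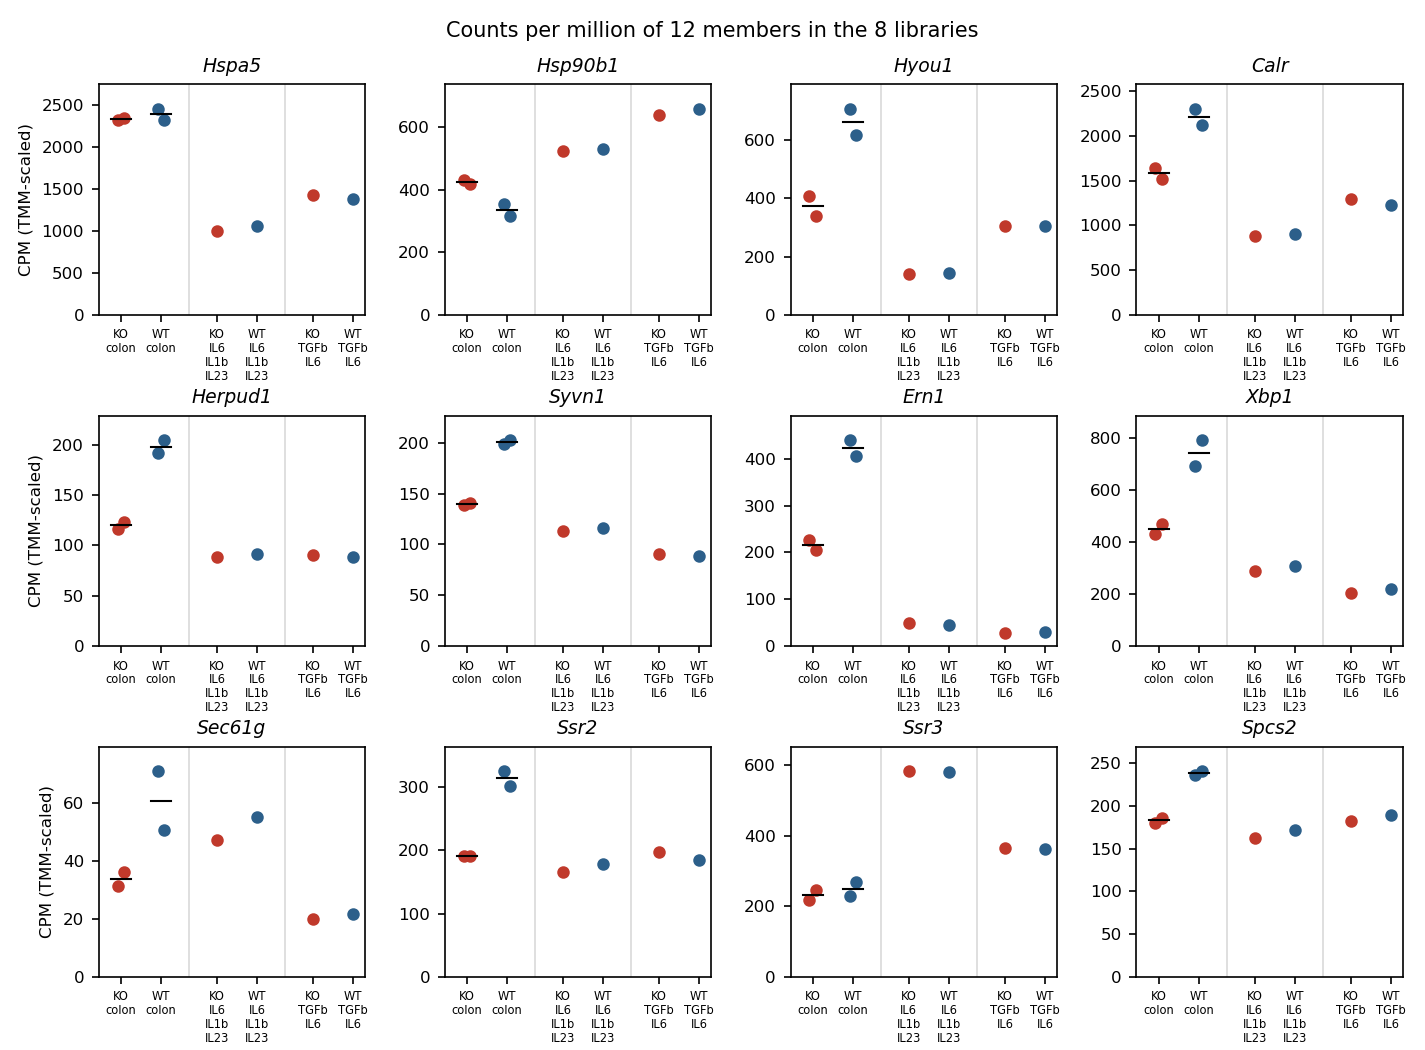
CPM of 12 members in each of the 8 libraries, with KO in red to the left of WT in blue in each pair and bars at the colon means. Axes start at 0 and differ between genes. Hyou1, Ern1, Xbp1 and Herpud1 separate KO from WT in the colon, while their KO and WT culture points lie closer together. Sec61g and Ssr3 are highest and Hyou1 lowest, among the culture libraries, with the IL-23 mix.

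GC content moved with these results. Across 9170 genes with at least 5 CPM, the colon fold change fell with the GC percent of the longest transcript (Spearman rho = -0.504, a description over genes that share libraries), with a median of -0.28 above the upper GC quartile (54.2%) and 0.25 below the lower (44.8%). Over the 34 members at that level rho was -0.692, and the 23 members that fell had a median GC of 51% (40.6% to 56.7%) against 43.9% (40.2% to 57.3%) in the other 12. With each library corrected for GC content by a smooth curve, 23 members were again lower (12.7% of all genes) and none higher (19.4% of all genes), with a member median of -0.34 against 0.070 over all genes. Of those 23, 19 were the same genes: Dnajb11, Pdia6, Eif2ak3 and Sec61b no longer passed, and Canx, Ssr1, Ssr3 and Spcs1 did. Hsp90b1 had a corrected log2 fold change of 0.12 ± 0.086 (SE, edgeR adjusted p = 0.3), and Ern1 of -0.83 ± 0.073 (SE, edgeR adjusted p = 8.6e-06).

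**Figure D3:**
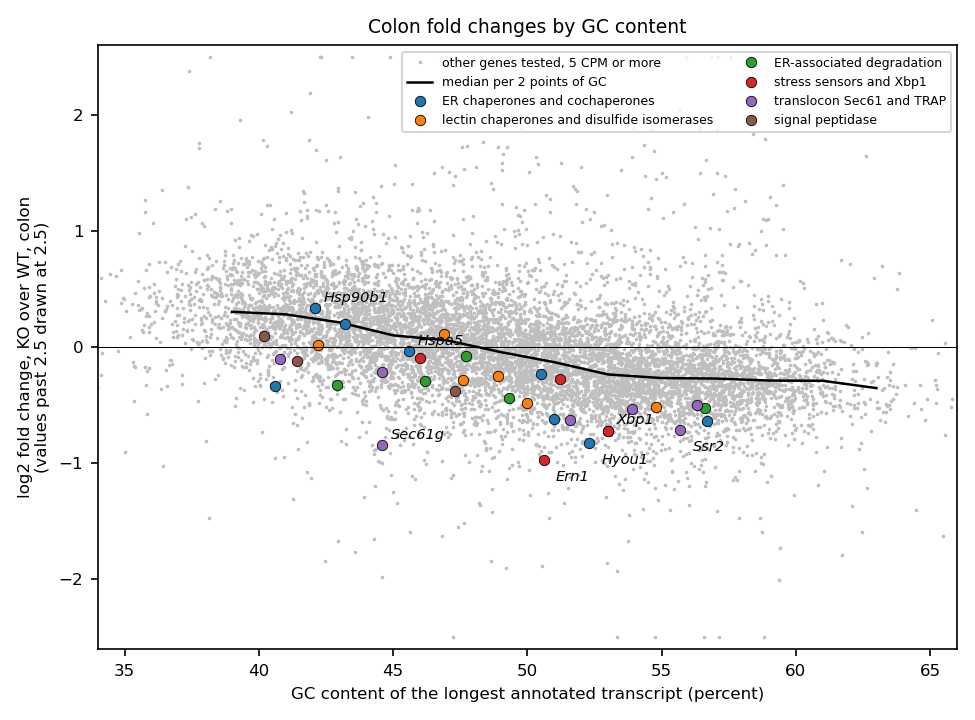
Colon log2 fold change, KO over WT, against GC percent of the longest transcript for genes with 5 CPM or more. Grey points are other genes, the black line is the median in steps of 2 GC points, and coloured points are members by role, Derl3 left out. The line runs downwards (rho = -0.504), and Ern1 (-0.97), Hyou1 (-0.83), Xbp1 (-0.72) and Ssr2 (-0.72) lie below it. Values past 2.5 in either direction are drawn at 2.5.

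Scaling by library totals in place of TMM shifted the median of all genes to 0.21, against 0.013 with TMM. Then 15 members were lower (9.63% of all genes) and 5 higher (32.7% of all genes), the added ones being Dnajc3, Canx, Pdia3 and Spcs3, with a member median of -0.13. T cell markers were also lower in KO colon, 12 of 16 as above, 8 of 16 with the GC correction (median -0.19) and 6 of 16 by library totals (median -0.13), and their part in the lower ER genes was not tested. Across 13 settings, 12 members were lower in every one: Hyou1, Manf, Calr, Herpud1, Derl1, Syvn1, Ern1, Xbp1, Sec61a1, Sec61g, Ssr2 and Ssr4. Leaving out 1 library ended the call of Dnajb9 (without KO 1 or WT 2), Dnajb11 (without KO 2, WT 1 or WT 2), Pdia4 and Pdia6 (without KO 2 or WT 1), Eif2ak3 (without KO 2, WT 1 or WT 2), and Derl2, Edem1 and Hsp90b1 (without WT 2). The log2 fold changes were then -0.28 and -0.18 for Dnajb9, -0.24, -0.22 and -0.26 for Dnajb11, -0.24 and -0.26 for Pdia4, -0.25 and -0.21 for Pdia6, and -0.21, -0.31 and -0.26 for Eif2ak3. They were -0.26 for Derl2, -0.26 for Edem1 and 0.25 for Hsp90b1. Ssr1 passed without KO 2 (-0.30) or WT 1 (-0.31).

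As a share of all counts, which amounts to scaling by library totals, the 35 members took 1.14% and 1.15% in KO colon, against 1.25% and 1.23% in WT colon. The sensor group took 0.0964% and 0.0976% in KO colon and 0.131% and 0.136% in WT colon, and the translocon 0.148% and 0.154% in KO and 0.177% and 0.184% in WT. The chaperones, of which Hspa5 took the most counts, took 0.412% and 0.412% in KO colon and 0.412% and 0.393% in WT colon. Per kilobase of exon, Hspa5 (551 CPM per kb) and Calr (550.1 CPM per kb) led in KO colon, with values that overlap between their libraries, while Calr (767 CPM per kb) stood above Hspa5 (564 CPM per kb) in WT colon. Derl3 was lowest in both.

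In culture, where KO and WT cells were compared across both cytokine mixes, none of the 35 members passed the test of genotype. Their log2 fold changes ran from -0.48 (Derl3, few counts) to 0.027, with a median of -0.040, and none had an unadjusted p under 0.05 with edgeR or with DESeq2. Over all 13983 genes, edgeR called 4 (0.0286%), with 500 at an unadjusted p under 0.05, and DESeq2 called 6. Rora itself passed, with a log2 fold change of -1.38 ± 0.068 (SE, edgeR adjusted p = 0.0004). Ern1 stood at 48.5 CPM in KO and 45.5 CPM in WT cells with the IL-23 mix, and 28.3 CPM in KO and 29.5 CPM in WT cells with the TGF-β mix. Xbp1 stood at 287 CPM in KO and 309.6 CPM in WT cells with the IL-23 mix, and 202 CPM in KO and 218 CPM in WT cells with the TGF-β mix. The genotypes lay side by side within each mix, with log2 fold changes of 0.020 ± 0.090 (SE, edgeR adjusted p = 1) for Ern1 and -0.11 ± 0.065 (SE, edgeR adjusted p = 1) for Xbp1. A p above the threshold does not show that KO and WT cells were alike, and the fit leaves 1 residual degree of freedom.

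Within a mix, 1 KO library stands against 1 WT library and no test applies. Of the 34 members with at least 5 CPM, none differed 1.5-fold, with log2 ratios from -0.22 (Sec61g) to 0.092 with the IL-23 mix and from -0.18 (Dnajc3) to 0.11 with the TGF-β mix. Over all genes at that level, 1.29% and 0.938% reached 1.5-fold in the same order of mixes. The median log2 ratio of the members was -0.088 with the IL-23 mix, against -0.0011 over all genes. With the TGF-β mix it was -0.00015, against 0.0068 over all genes. Sec61g, for example, had 47.5 CPM in KO and 55.2 CPM in WT cells with the IL-23 mix, a ratio of 0.86 (exact 95% interval 0.778 to 0.951, counting error only). Derl3, below 5 CPM, had 17 counts in KO and 36 counts in WT cells with the IL-23 mix, a ratio of 0.467 (0.246 to 0.853, counting error only). Such intervals excluded 1 for 15 of the 35 members with the IL-23 mix, each with a ratio below 1. With the TGF-β mix they did so for 12 members, with ratios on both sides of 1. The share over all genes was not counted. The members' share of counts was 0.757% in KO and 0.786% in WT cells with the IL-23 mix, and 0.883% in KO and 0.871% in WT cells with the TGF-β mix.

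The difference between the genotype effects in colon and in culture was tested in 1 fit of all 8 libraries, which leaves 3 residual degrees of freedom. It was negative and past the threshold for 16 members and positive for 1, Hsp90b1, where 9.57% and 7.73% of 14886 genes passed in these directions. The 6 members with the smallest p were Ern1 with -0.99 ± 0.12 (SE, edgeR adjusted p = 0.00021), Herpud1 with -0.72 ± 0.11 (SE, edgeR adjusted p = 0.00079), Ssr2 with -0.72 ± 0.11 (SE, edgeR adjusted p = 0.00092), Hyou1 with -0.82 ± 0.13 (SE, edgeR adjusted p = 0.0012), Xbp1 with -0.61 ± 0.12 (SE, edgeR adjusted p = 0.0036) and Ssr4 with -0.58 ± 0.11 (SE, edgeR adjusted p = 0.0038), each a log2 genotype effect in colon minus that in culture. Herpud1 stood in culture at 87.9 CPM in KO and 91.0 CPM in WT cells with the IL-23 mix, and 90.8 CPM in KO and 88.3 CPM in WT cells with the TGF-β mix. Ssr2 stood in culture at 165 CPM in KO and 178 CPM in WT cells with the IL-23 mix, and 196 CPM in KO and 184 CPM in WT cells with the TGF-β mix. Ssr4 stood in culture at 94.1 CPM in KO and 103 CPM in WT cells with the IL-23 mix, and 105 CPM in KO and 102 CPM in WT cells with the TGF-β mix. In all 3, KO and WT culture values lay close together in each mix. With the GC correction, 12 members were lower (4.47% of all genes), of which Hyou1, Calr, Herpud1, Ern1, Sec61g, Ssr2, Ssr4 and Spcs2 were among the 16, and Hsp90b1 did not pass. With library totals, 8 of the 16 passed (Hyou1, Herpud1, Syvn1, Ern1, Xbp1, Sec61a1, Ssr2 and Ssr4). Leaving out 1 culture library left 5 members lower without either TGF-β mix library and 10 without either IL-23 mix library, and none higher. Of the 17 members, 5 passed whichever of the 8 libraries was left out: Hyou1, Herpud1, Ern1, Xbp1 and Ssr2.

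By cytokine mix in culture, the members were called lower about as often as all genes, and called higher less often. With the IL-23 mix against the TGF-β mix, in a fit with genotype as a term that leaves 1 residual degree of freedom, 9 members rose, 12 fell and 14 did not pass, where 35.8% of all genes were higher and 34% lower. The median was -0.048 over the members and 0.017 over all genes. Here the genotypes stood in as repeats of the mix difference, so the p-values measure no spread between replicate libraries. No chaperone or lectin chaperone and isomerase rose, and 6 of 8 and 4 of 6 of them fell. This changed with the GC correction, where Dnajb9 and Canx were higher and Hsp90b1, Dnajc3 and Pdia3 did not pass. No degradation or sensor gene fell, and 4 of 7 and 2 of 4 rose. The translocon had 2 higher and 1 lower, and the signal peptidase 1 higher and 1 lower. The roles hold few genes each and were not tested against each other. In the list of other ER folding enzymes, given below, more genes were higher than lower with the IL-23 mix. Leaving out 1 culture library, in a fit of all the other libraries where a lone culture library is assumed to vary like the rest, kept 16 to 19 of the 21 calls. Whichever was left out, 15 were kept, and Derl1, Dnajc3, Hsp90b1, Pdia3, Sdf2l1 and Spcs1 lost theirs at least once. Derl1 and Spcs1 did not pass without either WT library, at 0.24 and 0.25 for Derl1 and at 0.30 and 0.32 for Spcs1, nor did Dnajc3, at -0.28 and -0.27. Hsp90b1 did not pass without the WT library with the IL-23 mix (-0.29), Pdia3 without either KO library (-0.22 and -0.23), and Sdf2l1 without any 1 of the 4 (-0.25 to -0.20).

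Hyou1 stood at 141 CPM in KO and 143 CPM in WT cells with the IL-23 mix, against 307 CPM in KO and 307 CPM in WT cells with the TGF-β mix. Both genotypes were lower with IL-23, and the log2 fold change was -1.11 ± 0.067 (SE, edgeR adjusted p = 2e-06). Dnajb11 stood at 79.8 CPM in KO and 88.6 CPM in WT cells with the IL-23 mix, against 149 CPM in KO and 147 CPM in WT cells with the TGF-β mix, and its log2 fold change was -0.81 ± 0.075 (SE, edgeR adjusted p = 2.3e-05). Creld2 had a value of -0.74 ± 0.087 (SE, edgeR adjusted p = 9.6e-05) and Pdia6 of -0.59 ± 0.069 (SE, edgeR adjusted p = 9.8e-05). Calr had -0.51 ± 0.068 (SE, edgeR adjusted p = 0.00021) and Hspa5 -0.45 ± 0.070 (SE, edgeR adjusted p = 0.00049). Sdf2l1, Hsp90b1, Pdia3 and Dnajc3 fell by 0.22 to 0.37 on the log2 scale. Manf, Dnajb9, Canx and Pdia4 did not pass.

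Of the degradation genes, Sel1l, Edem1, Syvn1 and Derl1 rose, and Herpud1, Derl2 and Derl3 did not pass. Sel1l stood at 144 CPM in KO and 163 CPM in WT cells with the IL-23 mix, against 92.6 CPM in KO and 86.1 CPM in WT cells with the TGF-β mix. Edem1 stood at 254 CPM in KO and 249.7 CPM in WT cells with the IL-23 mix, against 150.2 CPM in KO and 164 CPM in WT cells with the TGF-β mix. For both, the libraries with IL-23 were the higher in KO and in WT, with log2 fold changes of 0.78 ± 0.084 (SE, edgeR adjusted p = 5.7e-05) for Sel1l and 0.68 ± 0.071 (SE, edgeR adjusted p = 4.5e-05) for Edem1. Syvn1 had 0.36 ± 0.070 (SE, edgeR adjusted p = 0.0019) and Derl1 0.29 ± 0.069 (SE, edgeR adjusted p = 0.0056). Of the sensor group, Ern1 had 0.70 ± 0.091 (SE, edgeR adjusted p = 0.00017) and Xbp1 0.51 ± 0.065 (SE, edgeR adjusted p = 0.00017).

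Sec61g, the smallest subunit of the channel, stood at 47.5 CPM in KO and 55.2 CPM in WT cells with the IL-23 mix, against 19.996 CPM in KO and 21.6 CPM in WT cells with the TGF-β mix. It had the largest rise of the 35, with a log2 fold change of 1.30 ± 0.091 (SE, edgeR adjusted p = 4.5e-06). Sec61a1, the pore itself, had -0.53 ± 0.065 (SE, edgeR adjusted p = 0.00013). Ssr3 stood at 582 CPM in KO and 581 CPM in WT cells with the IL-23 mix, against 364 CPM in KO and 362 CPM in WT cells with the TGF-β mix, with the mixes apart and the genotypes together, and had 0.68 ± 0.065 (SE, edgeR adjusted p = 2.8e-05). The other TRAP subunits did not pass, with -0.046 for Ssr1, -0.15 for Ssr2 and -0.065 for Ssr4. Spcs1 had 0.41 ± 0.080 (SE, edgeR adjusted p = 0.0019) and Spcs3 -0.42 ± 0.067 (SE, edgeR adjusted p = 0.00061).

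**Figure D4:**
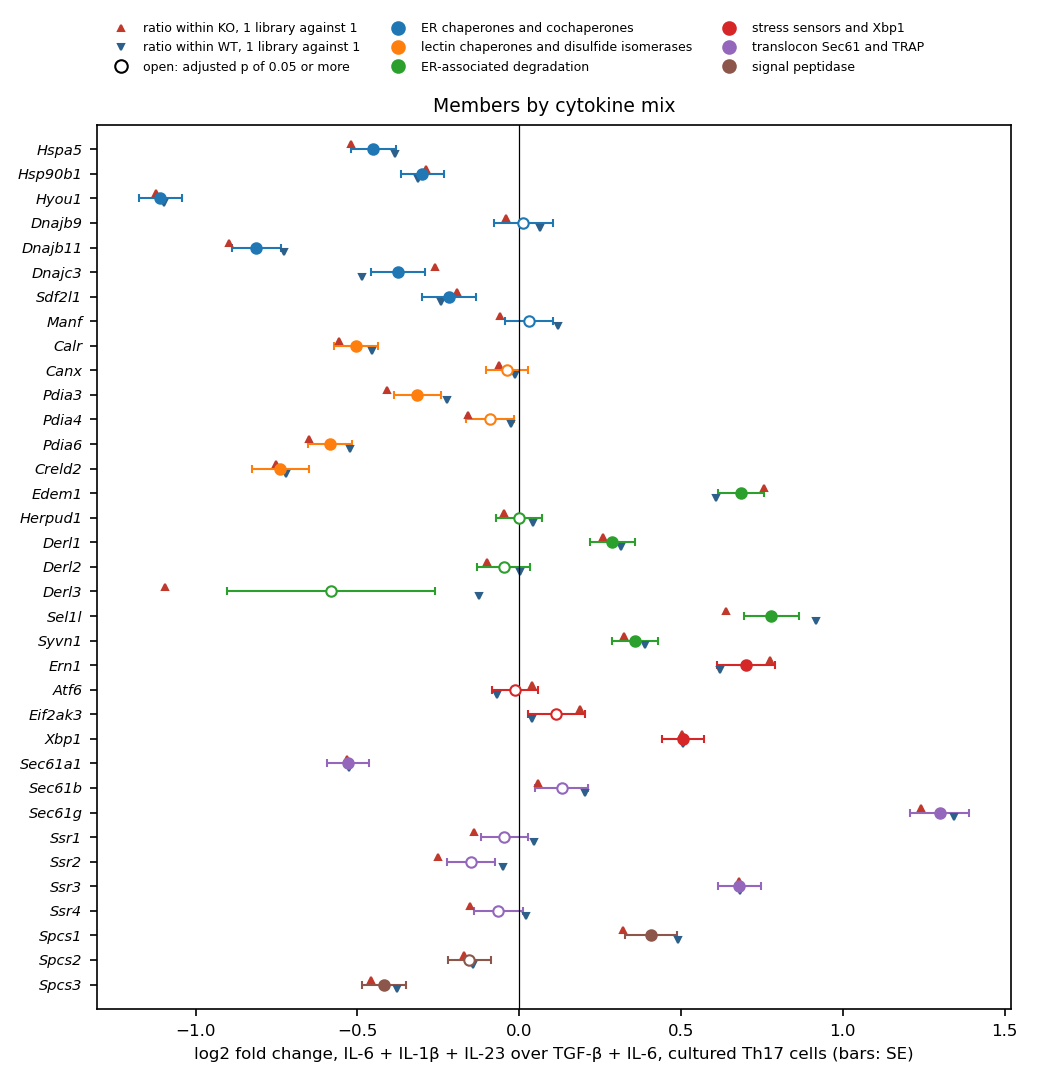
Log2 fold change of the 35 members in cultured cells, the IL-23 mix over the TGF-β mix (x axis, bars of 1 SE), by role. Filled points passed an adjusted p of 0.05, and triangles are the ratios of 1 library to 1 within KO (red) and within WT (blue). Hyou1 (-1.11) lies left of 0, and Sec61g (1.30), Sel1l (0.78) and Edem1 (0.68) lie right of it, each with its KO and WT triangles on the same side. For the folding genes Manf and Dnajb9 the KO triangle is left of 0 and the WT triangle right of it.

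Within each genotype, counting 1.5-fold between 1 library and 1, KO cells had 5 members higher (24.8% of all genes) and 4 lower (25.4%), and WT cells had 5 higher (24.9%) and 3 lower (25.8%). Edem1, Sel1l, Ern1, Sec61g and Ssr3 were the 5 in both, and Hyou1, Dnajb11 and Creld2 were lower in both, with Pdia6 added in KO. With the GC correction, 12 members were higher (40.9% of all genes) and 9 lower (30.6%). All 9 that rose stayed higher, with Dnajb9, Canx and Atf6 added, and 8 of the 12 that fell stayed lower, with Ssr2 added. Hsp90b1, Dnajc3, Pdia3 and Spcs3 then did not pass. Fibroblast markers summed to 417 CPM in KO and 453 CPM in WT cells with the IL-23 mix, against 2.57 CPM in KO and 2.66 CPM in WT cells with the TGF-β mix. Of these, Lum gave the most, with 387 CPM in KO and 422 CPM in WT cells with the IL-23 mix. With the IL-23 mix, Dcn stood at 22.3 CPM in KO and 22.4 CPM in WT cells, and Fn1 at 6.05 and 6.45 CPM. With the TGF-β mix, Dcn stood at 0.13 CPM in KO and 0.063 CPM in WT cells, and Fn1 at 0.50 and 0.89 CPM. Col1a1 stood at 1.11 CPM in KO and 1.58 CPM in WT cells with the IL-23 mix, and Col3a1 was at 0 in all 4 libraries. Macrophage markers summed to 32.9 CPM in KO and 34.8 CPM in WT cells with the IL-23 mix, against 2.44 CPM in KO and 2.21 CPM in WT cells with the TGF-β mix. Cd68 carried most of that sum, with 27.3 CPM in KO and 30.5 CPM in WT cells with the IL-23 mix. Mrc1 stood there at 5.47 CPM in KO and 4.15 CPM in WT cells. With the TGF-β mix, Cd68 stood at 2.19 CPM in KO and 2.15 CPM in WT cells, and Mrc1 at 0.063 and 0.063 CPM. C1qa, C1qb, C1qc and Lyz2 were at 0 in all 4. Dendritic cell markers summed to 287 CPM in KO and 309.6 CPM in WT cells with the IL-23 mix, against 39.7 CPM in KO and 50.2 CPM in WT cells with the TGF-β mix. H2-Ab1 and Cd74 carried that sum, H2-Ab1 with 179 CPM in KO and 195 CPM in WT cells with the IL-23 mix, against 17.0 CPM in KO and 23.3 CPM in WT cells with the TGF-β mix. H2-Aa stood at 0.0651 CPM in KO and 0.198 CPM in WT cells with the IL-23 mix, against 0.940 CPM in KO and 0.823 CPM in WT cells with the TGF-β mix, and Itgax stood at 0.190 CPM or less in all 4. Their part in the mix difference was not tested.

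Set side by side, the colon genotype comparison and the mix comparison, which share no library, gave 7 members lower in both: Hyou1, Dnajb11, Sdf2l1, Calr, Pdia6, Creld2 and Sec61a1. Another 6 were lower in KO colon and higher with IL-23: Edem1, Derl1, Syvn1, Ern1, Xbp1 and Sec61g. Hsp90b1 was higher in KO colon and lower with IL-23. Over all genes, 19.9% were lower and 19.6% higher in KO colon, and 35.8% were higher and 34% lower with IL-23. The share of all genes called in both comparisons was not counted, so these joint counts have no background and show no relation between the comparisons. For Hyou1 the log2 values were -0.83 for genotype and -1.11 for mix, for Ern1 -0.97 and 0.70, and for Sec61g -0.84 and 1.30.

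Members with and without an ERSE were set side by side, with no test. Of the 9 members with an ERSE, 4 were lower and 1 higher in KO colon (median log2 fold change -0.032), against 14 lower and 0 higher of 19 members with a promoter but no ERSE (median -0.33). Over all genes, 19.9% were lower and 19.6% higher in KO colon. With the IL-23 mix, 1 of the 9 was higher and 6 lower (median -0.45), against 7 higher and 3 lower of the 19 (median 0.013). Over all genes, 35.8% were higher and 34% lower with that mix. Herpud1 and Dnajb11, which have an ERSE-II, are among the 19 and were lower in KO colon. Split by any of the 3 words, 6 of 11 members with a word were lower and 1 higher in KO colon (median -0.23). Of the 17 without a word, 12 were lower and 0 higher (median -0.33). With the IL-23 mix, 1 of the 11 was higher and 7 lower (median -0.45), against 7 and 2 of the 17 (median 0.11). The 7 members with no promoter entry are in none of these groups. Of these, Hyou1, Manf, Derl1, Sec61a1 and Ssr2 were lower in KO colon, and Atf6 and Spcs3 did not pass. Median GC content was 48.9% in those with an ERSE and 47.6% in those without. The stretches printed above for Hspa5, Hsp90b1 and Calr belong to genes with colon log2 fold changes of -0.032, 0.34 and -0.48.

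Other ER genes were counted from lists that do not overlap the members. Over all genes tested in colon, 19.9% were lower and 19.6% higher in KO, with a median log2 fold change of 0.013. In KO colon, 13 of 17 genes of N-glycosylation and the oligosaccharyltransferase fell and none rose (median -0.37), among them Ddost, a subunit of the enzyme that attaches glycans, with -0.60 ± 0.076 (SE, edgeR adjusted p = 0.00013). The COPII list holds the coat that buds vesicles from the ER and also cargo or retrieval receptors such as Lman1, Lman2 and Kdelr1. In this list 11 of 19 fell and none rose (median -0.29), Sec24d with -0.73 ± 0.086 (SE, edgeR adjusted p = 8.1e-05). Other folding enzymes had 8 lower and 1 higher of 21 (median -0.080), with Ppib, a prolyl isomerase, at -0.75 ± 0.081 (SE, edgeR adjusted p = 4.4e-05) and P4hb, the main disulfide isomerase, at -0.73 ± 0.077 (SE, edgeR adjusted p = 3.9e-05). Other degradation genes had 8 lower and 3 higher of 19 (median -0.18), Ube2j1 with -0.55 ± 0.078 (SE, edgeR adjusted p = 0.00026) and Ngly1, which removes glycans from extracted proteins, with 0.75 ± 0.10 (SE, edgeR adjusted p = 0.00022). Other genes of the unfolded protein response had 6 lower and 1 higher of 16 (median -0.23), which was Atf3, a stress-induced transcription factor, with 0.73 ± 0.075 (SE, edgeR adjusted p = 3.4e-05). The signal recognition particle and other translocation genes had 4 lower and 4 higher of 15 (median 0.065), Srprb with -0.52 ± 0.11 (SE, edgeR adjusted p = 0.0026) and Sec62 with 0.53 ± 0.081 (SE, edgeR adjusted p = 0.00045). In culture, no gene of these lists passed the test of genotype. By library totals the colon medians were -0.17, -0.094, 0.11, 0.014, -0.040 and 0.26 in the order above, and with the GC correction -0.23, -0.20, -0.079, -0.028, -0.099 and 0.045. Over all genes the median was 0.21 by library totals and 0.070 with the GC correction. By library totals, where 9.63% of all genes were lower and 32.7% higher, the lower and higher genes numbered 5 and 2 for N-glycosylation, 7 and 2 for COPII, 5 and 6 for other folding enzymes, 2 and 8 for other degradation, 2 and 3 for the other stress response and 1 and 6 for translocation.

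**Figure D5:**
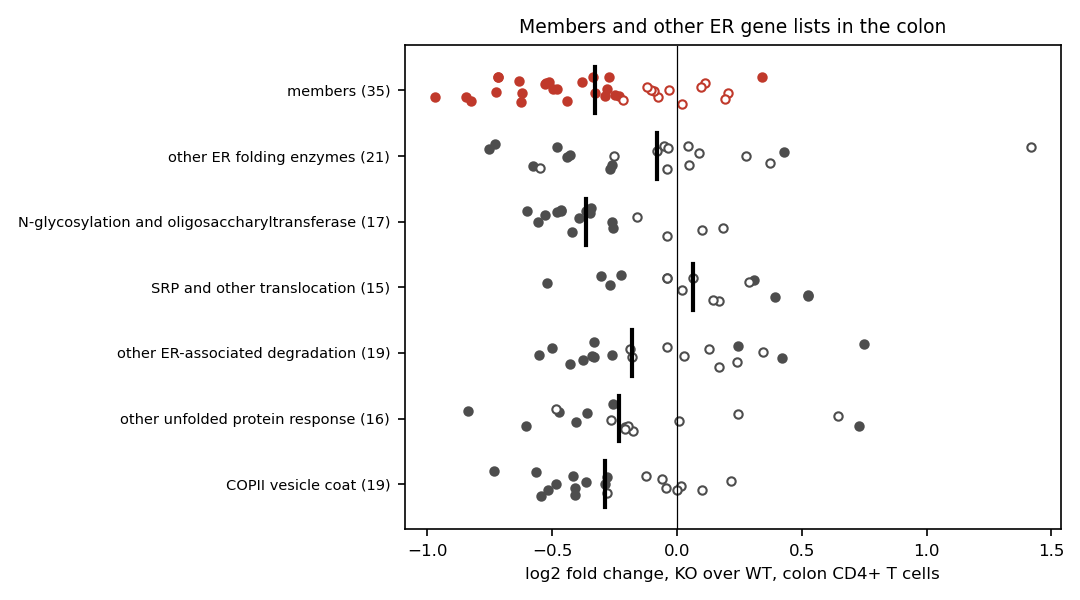
Colon log2 fold change, KO over WT, of the members and of 6 other lists of ER genes, 1 point per gene and a bar at each median. Filled points passed an adjusted p of 0.05. The medians of the members (-0.33), of N-glycosylation (-0.37) and of the COPII list (-0.29) lie below 0, and that of the signal recognition particle list (0.065) lies above it.

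By cytokine mix, the other folding enzymes had 11 genes higher and 5 lower of 21 with the IL-23 mix, N-glycosylation 5 and 8 of 17, translocation 4 and 6 of 15, other degradation 9 and 6 of 19, the other stress response 8 and 6 of 16, and COPII 5 and 6 of 19, where 35.8% of all genes were higher and 34% lower.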

How the data were processed

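RNA-seq gene counts of 8 libraries were analysed: 2 KO and 2 WT colon libraries, and 1 KO and 1 WT culture library for each of 2 cytokine mixes. The deposited values are raw read counts per gene, whole numbers with no normalization, per the file headers. The submitters' processing notes name mm10, featureCounts, Bowtie2, Trim Galore, DESeq2 and edgeR, without roles or versions. Colon files list Ensembl identifiers and culture files symbols, joined by symbol for 53657 genes. In each file 26 or 27 symbols had become dates, with at most 0.2687% of counts, and were not used. No column of another sample was present (0).

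Analyses used R 4.3.3, edgeR 4.0.16, DESeq2 1.42.0, limma 3.58.1, Python 3.11.15 and scipy 1.17.1. Genes kept by filterByExpr were scaled by TMM and tested with edgeR's quasi-likelihood F-test, with Benjamini-Hochberg adjustment over all genes tested and a threshold of 0.05. The SE is the absolute log2 fold change over the square root of F. Colon libraries were fitted alone (2 residual degrees of freedom), culture libraries with terms for genotype and mix (1), and all 8 together for the difference between genotype effects (3). Ratios of 1 library to 1 used a prior count of 2 and genes with 5 CPM or more, with no test. Exact 95% intervals cover counting error only. The code was tested on simulated counts. Coordinates are of mm10 from GENCODE release M21, and promoter sequences are from RefSeq (GRCm38.p6).

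Replicate libraries were distinct (chi-square per gene of 5.512 within KO and 7.57 within WT colon). TMM factors were 1.066 and 1.072 in KO and 0.9346 and 0.9361 in WT colon. The members, the lists of other ER genes and markers, and the tests were chosen with earlier results of these data known, so a list's direction is no independent support. Values in every library are given for the 3 members of each role with the smallest colon p and the 6 with the smallest p in the mix comparison and in the difference between colon and culture. Alternatives were DESeq2 size factors, library totals, no filter on low counts, DESeq2's Wald test, each colon library left out, a replicate block, all libraries in 1 fit, no mix or genotype term, and, chosen after seeing the data, lowess corrections (span 0.3) for GC content or for GC content and length, and each culture library left out of the fit of all libraries (2 residual degrees of freedom).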

Additional observations from a re-analysis of the deposited data

Results flagged for a closer look

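The log2 genotype effect (KO over WT) in colon differed from that in culture for 17 members, by the edgeR test of the difference itself in the fit of all 8 libraries. Hsp90b1, the Hsp90 of the ER, was the only one with a positive difference, 0.37 (edgeR adjusted p = 0.036). The other 16 were negative. Among chaperones and isomerases the edgeR values were -0.82 for Hyou1 (adjusted p = 0.0012), -0.51 for Sdf2l1 (adjusted p = 0.015), -0.53 for Manf (adjusted p = 0.0093), -0.51 for Calr (adjusted p = 0.0079) and -0.50 for Creld2 (adjusted p = 0.018). Among the degradation and sensor genes they were -0.72 for Herpud1 (adjusted p = 0.00079), -0.33 for Derl1 (adjusted p = 0.04), -0.52 for Syvn1 (adjusted p = 0.0041), -0.99 for Ern1 (adjusted p = 0.00021) and -0.61 for Xbp1 (adjusted p = 0.0036). Among the translocon and signal peptidase genes edgeR gave -0.52 for Sec61a1 (adjusted p = 0.005), -0.49 for Sec61b (adjusted p = 0.023), -0.67 for Sec61g (adjusted p = 0.027), -0.72 for Ssr2 (adjusted p = 0.00092), -0.58 for Ssr4 (adjusted p = 0.0038) and -0.32 for Spcs2 (adjusted p = 0.045). Across all genes, 9.57% passed in the negative and 7.73% in the positive direction. Leaving out 1 colon library ended the call of Derl1 and of Spcs2 whichever was left out, with values of -0.32, -0.36, -0.36 and -0.32 for Derl1 and -0.30, -0.35, -0.35 and -0.31 for Spcs2. It ended that of Hsp90b1 without KO 1 (0.34), KO 2 (0.39) or WT 2 (0.28), of Sec61g without KO 1 (-0.58) or WT 1 (-0.42), of Creld2 without KO 2 (-0.45) or WT 1 (-0.39), of Sdf2l1 without KO 2 (-0.44) and of Sec61b without KO 2 (-0.36). Leaving out 1 culture library, which leaves 2 residual degrees of freedom, ended the calls of Hsp90b1, Sdf2l1, Creld2, Derl1, Sec61b, Sec61g and Spcs2 whichever was left out. The differences then ran from 0.35 to 0.37 for Hsp90b1, from -0.53 to -0.49 for Sdf2l1, from -0.53 to -0.49 for Creld2, from -0.37 to -0.31 for Derl1, from -0.58 to -0.42 for Sec61b, from -0.75 to -0.63 for Sec61g and from -0.35 to -0.31 for Spcs2. Without the KO or the WT library of the TGF-β mix, Calr (-0.46 and -0.45), Manf (-0.44 and -0.44), Syvn1 (-0.49 and -0.49), Sec61a1 (-0.51 and -0.51) and Ssr4 (-0.49 and -0.49) did not pass either. Hyou1, Herpud1, Ern1, Xbp1 and Ssr2 passed whichever of the 8 libraries was left out.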

How the results depend on the processing

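The 23 lower and 1 higher members in colon, the 9 higher and 12 lower by mix and the 16 lower and 1 higher in the difference between colon and culture stayed within 1.5 times under the alternatives not named here. By library totals 5 members were higher and 15 lower in colon, and 3 higher and 8 lower in the difference, with 4284 genes higher and 1262 lower in colon and 2266 higher and 566 lower in the difference. With the GC correction, and with GC and length, 0 members were higher in colon or in the difference. These left 1666 and 1601 genes lower in colon, and 666 and 693 in the difference, and GC and length gave 15 members higher by mix. DESeq2's Wald test called 1423 genes higher in colon, 616 in the difference and 3311 by mix. Leaving out 1 colon library gave 0 to 1 member higher in colon and in the difference. Over all 8 libraries, leaving out 1 gave 5 to 14 members lower in the difference, with 308 to 1073 genes higher and 435 to 1379 lower. The low ends were without a library of the TGF-β mix, and leaving out a colon library gave 723 to 1073 genes higher.

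In culture, genotype called 4 genes higher and 5 lower with DESeq2 size factors and with library totals, 0 and 0 with no filter or no mix term, 19 and 15 with the GC correction, 7 and 7 with GC and length, and 10 and 5 with all 8 libraries in 1 fit. In that fit, leaving out 1 culture library gave 2 to 12 higher and 5 to 6 lower, with Ern1 from -0.060 to 0.088 and Hyou1 from -0.029 to 0.0062. No alternative called a member. At 2-fold between 1 library and 1, 1 member was higher and 1 lower by mix in KO, and 1 higher and 1 lower in WT.

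Some colon log2 fold changes changed sign, of which Sec61b (-0.50, and -0.49 in the difference) alone had passed the test. By library totals they were 0.16 for Hspa5, 0.12 for Sel1l, 0.10 for Atf6, 0.088 for Ssr3 and 0.074 for Spcs1. With the GC correction they were -0.19 for Canx and -0.18 for Spcs3, and with GC and length -0.015 for Dnajc3, -0.21 for Canx, 0.026 for Sec61b (0.00029 in the difference) and -0.18 for Spcs3. Canx was -0.00093 with DESeq2. Without 1 library, Canx ran from -0.016 to 0.039, Derl3 from -0.52 to 0.66, Ssr3 from -0.22 to 0.0019 and Spcs3 from -0.021 to 0.17. The cause was not tested.

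Same-numbered colon libraries share only a number in the labels, which do not say whether they also shared a litter or day. The correlation of the deviations of same-numbered libraries was 0.2675 over 9110 genes, in 2 pairs. With a replicate block, 2 members were higher and 24 lower in colon (Dnajc3 and Ssr1 added), with 3061 genes higher and 3169 lower, and 1 was higher and 16 lower in the difference. Leaving out a culture library leaves 0 residual degrees of freedom in the fit of the culture libraries, but 2, all from colon, in that of all libraries, where the lone culture libraries are assumed to vary like the others. There were 2 libraries a group in colon and 1 per genotype and mix in culture, and Derl3 had few counts. C-terminal retention tails were not analysed here.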
